A study of Mus musculus with 6 samples.

Results

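The kidney's urate transporters and the proteins that work with them were followed in the mRNA counts of mice with hyperuricemia-related chronic kidney disease (CKD). The set comprised 10 genes, chosen by symbol among the 55450 gene rows of the count table, namely Slc22a12, Slc2a9, Abcg2, Slc17a1, Slc17a3, Abcc4, Pdzk1, Slc5a8, Slc5a12 and Slc16a9. Each symbol matched 1 row, and all 10 passed the filter on low counts. Kidney tissue came from wild-type male C57BL/6J mice, bought at 7 weeks of age and kept for 1 week. The day-21 group (3 mice sequenced) was gavaged daily with adenine at 0.16 g/kg together with potassium oxonate at 2.4 g/kg. The day-0 group (3 mice sequenced) was the control, labelled as given 20% PEG. Potassium oxonate inhibits uricase, the enzyme with which mice break down urate, so that serum urate rises, and adenine adds purine and injures the tubule. The model therefore combines both agents, and their separate effects cannot be told apart here. By the study's methods each group was sacrificed on its own day, so age and days under gavage differ between the groups too. PEG is labelled for the controls alone. Effects of age, gavage and PEG cannot be told apart from those of the agents.

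Urate is filtered at the glomerulus and then moved in both directions across the proximal tubule cell. URAT1, the product of Slc22a12, takes urate from the lumen in exchange for an organic anion. GLUT9, the product of Slc2a9, lets urate out towards the blood, although Slc2a9 is known in mouse kidney mainly from the distal tubule. Efflux back into the lumen is carried by the ATP-driven pumps ABCG2 and MRP4 (Abcc4) and by the voltage-driven carriers NPT1 (Slc17a1) and NPT4 (Slc17a3). The sodium-coupled carriers of Slc5a8 and Slc5a12 load the cell with lactate and other monocarboxylates that URAT1 exchanges for urate. Slc16a9 encodes MCT9, a carnitine and creatine carrier whose locus is known from human studies of serum urate. PDZK1 is a scaffold of the brush border that holds several of these carriers by their C-terminal tails.

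Between day 0 and day 21, 8 of the 10 genes fell and 1, Abcc4, rose, while Slc2a9 was higher in each day-21 mouse but did not pass the fold threshold. The fall was deepest for Slc22a12, to 17.1% of its day-0 level, and shallowest for Abcg2, to 55.6%. A call required an adjusted p under 0.05 by the quasi-likelihood test of edgeR, and a fold over 1.5. Over all 16592 genes tested, 15.5% were called lower and 19.6% higher (35.1% in all). The median log2 fold change of the 10 genes was -1.40, beside 0.03 for all genes tested. In each of the 10 genes the 3 mice of one group lay wholly above or below the 3 mice of the other, 8 lower and 2 higher. Such separation was seen in 26.4% of all genes tested for lower values and in 30.7% for higher values (57.1% in all). By a two-sided exact permutation test on the normalized counts, every one of the 10 genes gave p = 0.1, the smallest value that 3 mice against 3 allow.

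The libraries held from 10963849 to 14333311 counts, so that the floor of detection, set at 3 counts, lay at 0.209 to 0.274 CPM (counts scaled to the library size), a limit that covers counting error only. CPM values below are scaled by TMM, edgeR's correction for library composition, with errors as SD between mice. Mitochondrially encoded genes took 9.39% to 9.86% of the counts on day 0 and 3.82% to 4.42% on day 21. With library size alone the median of all genes moved to 0.42 on the log2 scale, and with the upper quartile to 0.12. All 10 genes kept their direction in each of the 16 other fits.

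The tissue carried the markers of a kidney at both times, none of them at 0 in a group. All 9 proximal tubule markers (Lrp2, Cubn, Slc34a1 and others) were called lower on day 21, and their summed level went from between 17620 and 19420 CPM to between 4040 and 4985 CPM. The same was true of 3 of 3 markers of the early segments (S1 and S2) and of 3 of 4 of the late segment (S3). All 5 markers of injured tubule cells were called higher, with a sum of 24.8 to 62.0 CPM on day 0 and 1924 to 2317 CPM on day 21. All 5 macrophage and all 4 fibroblast markers were also called higher. Elsewhere, 2 of 3 distal convoluted tubule, 2 of 4 principal cell, 2 of 4 intercalated cell, 3 of 3 podocyte, 1 of 4 endothelial and 3 of 3 erythroid markers were called lower. The thick ascending limb had 1 marker called higher and 1 called lower of 3. Fewer proximal tubule cells and less of an mRNA in each cell cannot be told apart in whole-kidney counts.

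**Figure D1:**
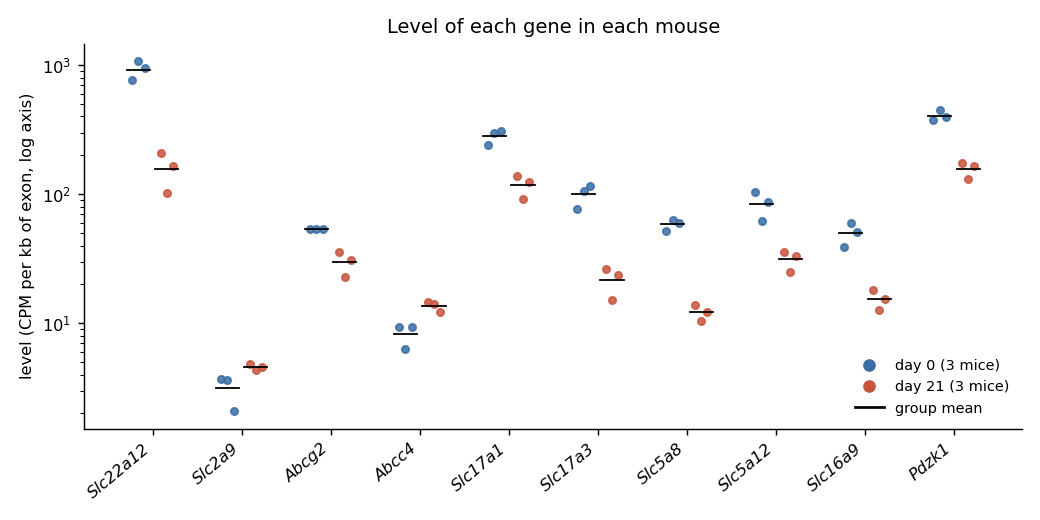
Level of each of the 10 genes in each mouse, in CPM per kilobase of exon on a log axis, with day-0 mice in blue, day-21 mice in red and group means as black lines. Red points lie below blue ones for 8 genes and above them for Slc2a9 and Abcc4.

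The promoters of the members were read from RefSeq on GRCm38.p6, which held 14 of them for 9 of the 10 genes (none for Slc5a12). The stretches before the start sites are shown for Slc22a12, the deepest fall, and for Slc17a3, the deepest among the secretory genes. The third is from the first of the 2 promoters of Abcc4, the gene called higher. The genes were picked with their changes known. Each has 250 bases and ends at the base before the annotated RefSeq start. Capitals mark matches to the motifs searched, and the first and second have none.
Slc22a12 (chr19:6543071-6543320, reverse strand): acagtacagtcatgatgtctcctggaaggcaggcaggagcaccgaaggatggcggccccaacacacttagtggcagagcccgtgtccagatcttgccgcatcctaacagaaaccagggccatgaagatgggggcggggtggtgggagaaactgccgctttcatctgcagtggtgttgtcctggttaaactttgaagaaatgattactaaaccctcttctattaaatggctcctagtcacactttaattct
Slc17a3 (chr13:23839184-23839433, forward strand): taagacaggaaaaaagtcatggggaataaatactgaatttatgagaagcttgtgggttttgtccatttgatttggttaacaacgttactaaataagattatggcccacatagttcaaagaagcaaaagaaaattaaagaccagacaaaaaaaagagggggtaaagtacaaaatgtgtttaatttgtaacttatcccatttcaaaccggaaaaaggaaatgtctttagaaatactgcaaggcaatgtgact
Abcc4 (chr14:118706220-118706469, reverse strand): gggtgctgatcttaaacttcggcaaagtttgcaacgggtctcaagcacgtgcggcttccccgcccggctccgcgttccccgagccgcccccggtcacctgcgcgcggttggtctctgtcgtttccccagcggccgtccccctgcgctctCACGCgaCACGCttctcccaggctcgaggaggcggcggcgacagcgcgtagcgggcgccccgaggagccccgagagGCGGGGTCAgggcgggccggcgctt
Their GC content was 50.8%, 32.8% and 72.0%. The matching stretch of the second Abcc4 promoter had 47.6%, and that of Slc16a9, which fell, had 70.4%. A link between base composition and change was not tested.

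Letters known as recognition sites of 3 kinds of regulator were searched on both strands of the whole RefSeq promoters, each of which runs on a short way past the start. The HNF4 letters CAAAGTCCA were found in 1 of the 14 promoters, that of Pdzk1, and in 0.475% of all 32851 RefSeq promoters. The match starts 15 bases into the transcript.
Pdzk1 (chr3:96830069-96830098, forward strand): aatctttgtcCAAAGTCCAgtgagttccaa
The antioxidant response letters TGACNNNGC were in 3 of the 14, in Abcc4 and Pdzk1, and in 12.4% of all promoters. The xenobiotic response letters GCGTG were in 4 of the 14 (Abcc4, Abcg2, Slc16a9 and Slc5a8) and in 32.4% of all promoters. No pair of these motifs overlapped in the Abcc4 stretch above. These matches describe letters in a window, and binding was not measured.

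Slc22a12, the apical exchanger that brings urate into the cell, lies on the reverse strand of chromosome 19 of GRCm38 from 6535845 to 6543032 and has 10 exons in its longest transcript. It was counted at 1721, 2415 and 2136 CPM in the 3 day-0 mice and at 469, 232 and 371 CPM in the 3 day-21 mice. The lowest control mouse was thus well above the highest day-21 mouse, and the second day-21 mouse was the lowest of all. The mean went from 2091 ± 350 CPM (SD, n = 3) to 358 ± 119 CPM (SD, n = 3). Its log2 fold change was -2.55 (SE 0.24, 95% confidence interval -3.09 to -2.01, Benjamini-Hochberg adjusted p = 2.07e-05 by the quasi-likelihood test of edgeR). By log2 fold change it stood at place 160 from the lowest among the 16592 genes tested.

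The count of Slc22a12 shares bases with a gene on the other strand. Of its exon bases, 30.1% lie in exons of Nrxn2, a neurexin gene known from neurons. Nrxn2 was counted at 7791, 12991 and 9627 on day 0 and at 2906, 1681 and 2628 on day 21. In each of the 6 mice that was between 43.1% and 46.4% of the Slc22a12 count. These are raw counts over unlike exon lengths, 13812 bases for Nrxn2 and 2263 for Slc22a12. Per kilobase of exon, Nrxn2 had means of 68.6 CPM on day 0 and 11.2 on day 21, beside 924 and 158 for Slc22a12. Whether reads were counted by strand is not given in the sources used here, so reads of the pair cannot be told apart where their exons overlap.

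Slc2a9, the basolateral exit route, was the member with the lowest level. This gene, known in mouse kidney mainly from the distal tubule, lies on chromosome 5 from 38349273 to 38503143 on the reverse strand. Its counts were 186, 223 and 103 on day 0 and 345, 370 and 381 on day 21, or 18.7, 18.4 and 10.6 CPM against 24.4, 22.1 and 23.3 CPM. The third control mouse was low, and all day-21 mice lay above the other two controls by a small margin. The log2 fold change of 0.55 (SE 0.20, 95% confidence interval 0.10 to 0.99) had an adjusted p = 0.0468 from edgeR, and its fold of 1.46 was under the threshold of 1.5. It was called higher with the upper quartile (0.63) or library size alone (0.94), and without day-0 replicate 1 (0.65) or replicate 2 (0.67), while without day-0 replicate 3 it was 0.31. The 3 distal convoluted tubule markers summed to between 804.5 and 1377 CPM on day 0 and between 489 and 654.5 CPM on day 21, and their part in the level of Slc2a9 was not tested.

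Among the secretory genes, the carriers and 1 pump fell and the other pump rose. Slc17a3, which encodes NPT4 and whose upstream sequence is the AT-rich one shown above, was the deepest fall among them. It was at 522, 720 and 780 CPM in the controls and at 179, 102 and 160 CPM in the day-21 mice, which left a wide gap between the groups. Its log2 fold change was -2.20 (SE 0.22, adjusted p = 2.89e-05 by edgeR).

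Slc17a1, which encodes NPT1, is its neighbour on chromosome 13, and both lie on the forward strand, Slc17a3 from 23839434 to 23860716 and Slc17a1 from 23867750 to 23895730. Slc17a1 was at 575, 708 and 739 CPM on day 0 and at 328, 218 and 294 CPM on day 21. It fell by 1.27 on the log2 scale (SE 0.16, adjusted p = 0.000154 by edgeR), a shallower change than that of Slc17a3. Within each mouse, the log2 ratio of Slc17a3 to Slc17a1 per kilobase was -1.65, -1.49 and -1.44 on day 0 and -2.38, -2.61 and -2.40 on day 21. The ratio dropped by 0.94 (exact permutation test, two-sided, p = 0.1, the smallest possible), and the groups did not overlap. No 50-base word of the longest transcript of either gene occurs in another gene.

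The cluster holds a further pair of genes of the family. Slc17a2 had between 1 and 5 counts per mouse and was not tested. Slc17a4, which overlaps neither member, was at a mean of 4.47 CPM on day 0 and 5.35 CPM on day 21 with overlapping groups (log2 fold change 0.26, edgeR adjusted p = 0.425).

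Abcg2, the urate efflux pump that is also found in the gut and in red cell precursors, lies on chromosome 6 from 58584523 to 58695676. The 3 day-0 mice were very close, at 441, 437 and 436 CPM, and the day-21 mice were spread out lower, at 291, 187 and 252 CPM. The log2 fold change was -0.85 (SE 0.15, adjusted p = 0.00123 by edgeR). With scaling by library size alone Abcg2 was at -0.46 and not called. Relative to the median of all genes it was at -0.88 under both scalings. That likeness holds by construction, since a change of scaling shifts all genes by nearly the same amount. The 3 erythroid markers (Hbb-bs, Hba-a1 and Alas2) summed to between 208.8 and 472 CPM on day 0 and between 31.5 and 72.7 CPM on day 21, and their part in the fall of Abcg2 was not tested.

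Abcc4 encodes MRP4, a pump for urate, cyclic nucleotides and drug conjugates, and lies on the reverse strand of chromosome 14 from 118482692 to 118706219. The GC-rich upstream sequence of the first of its 2 promoters is shown above. It was the member called higher, at 59.3, 40.6 and 59.7 CPM on day 0 and 93.5, 90.3 and 78.2 CPM on day 21. The second control mouse was lower than the other two. The log2 fold change was 0.72 (SE 0.16, 95% confidence interval 0.37 to 1.06, adjusted p = 0.00371 by edgeR). Without day-0 replicate 2 it was 0.55 and no longer called, and over the other fits it ran from 0.67 to 1.10.

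**Figure D2:**
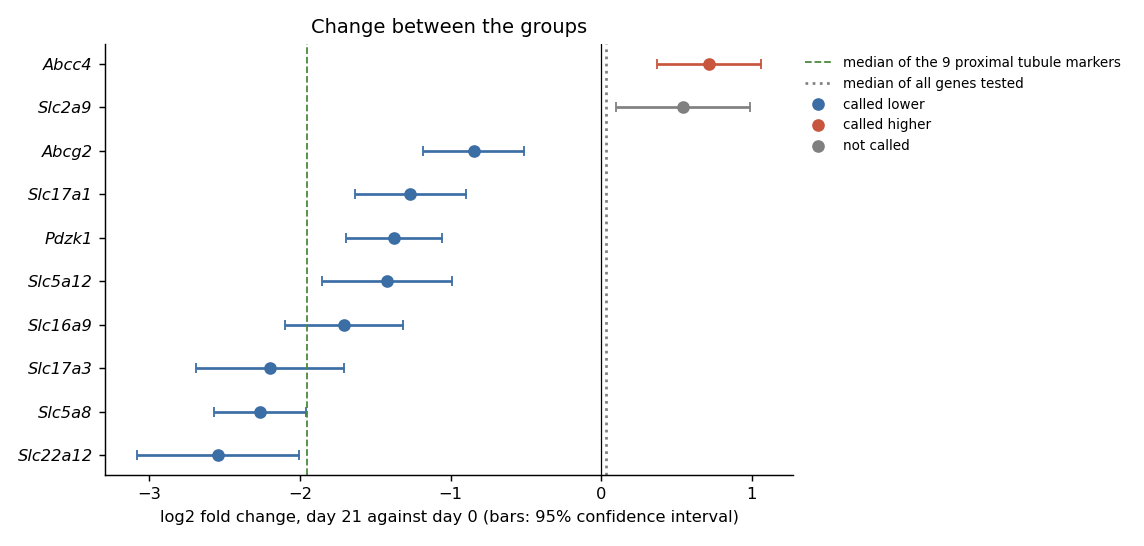
Log2 fold change of each gene on day 21 against day 0 from edgeR, with 95% confidence intervals, beside the median of all genes tested (dotted, 0.03) and the median of 9 proximal tubule markers (dashed, -1.95). The 8 genes called lower run from -2.55 to -0.85, and Slc2a9 and Abcc4 lie above 0.

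Both sodium-coupled monocarboxylate carriers, which load the cell with anions for exchange against urate, fell, and so did Slc16a9. Slc5a8 (chromosome 10, 88885992 to 88929515) encodes SMCT1, a carrier with high affinity for lactate that is known mainly from the late proximal tubule. It was at 275, 337 and 322 CPM on day 0 and at 73.6, 55.8 and 64.8 CPM on day 21, with little spread in either group. Its log2 fold change of -2.27 had a small SE, 0.14, and an adjusted p = 2.05e-06 from edgeR.

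Slc5a12 (chromosome 2, 110597298 to 110647779) encodes SMCT2, a carrier of lower affinity known mainly from the early segments. Its controls were more uneven, at 422, 252 and 352 CPM, and the day-21 mice were at 145, 102 and 135 CPM. The log2 fold change was -1.42 (SE 0.20, adjusted p = 0.000221 by edgeR). The log2 ratio of Slc5a12 to Slc5a8 per kilobase was 1.01, -0.03 and 0.52 in the controls and 1.37, 1.26 and 1.45 in the day-21 mice. The balance within the pair thus moved towards Slc5a12 by 0.86, although the day-0 mice ranged widely (exact permutation test, two-sided, p = 0.1, the smallest possible). Without single mice this difference ran from 0.60 to 1.12. Over the same days the 4 markers of the late segment had a median log2 fold change of -3.25 and the 3 of the early segments one of -1.71, and the part of segment makeup in the ratio was not tested.

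Slc16a9 (chromosome 10, 70245100 to 70285968) was at 152, 230 and 197 CPM on day 0 and at 69.7, 48.6 and 59.1 CPM on day 21. The fall of 1.71 on the log2 scale (that is, a log2 fold change of -1.71, SE 0.18, adjusted p = 3.64e-05 by edgeR) parted the groups clearly. Of its exon bases, 23.5% lie in exons of Gm7097 and Gm9877 on the other strand, and Gm7097 was counted at 29.1% to 37.2% of the Slc16a9 count in each mouse.

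Pdzk1, the scaffold, lies on the forward strand of chromosome 3 from 96829284 to 96870926. It was at 1329, 1607 and 1403 CPM on day 0 and at 616, 464 and 591 CPM on day 21. The fall to 38.5% of the day-0 level (log2 change -1.38, SE 0.14, adjusted p = 3.55e-05 by edgeR) was smaller than that of Slc22a12, whose product PDZK1 binds, with 95% confidence intervals of -1.69 to -1.06 and -3.09 to -2.01. The difference between the pair was not tested. Here too exons overlap, since 41.7% of its exon bases lie in exons of genes on the other strand, above all Gpr89, a Golgi acidification gene. Gpr89 was counted at 56.7% to 65.0% of the Pdzk1 count in each mouse. Per kilobase of exon, Gpr89 had means of 158 CPM on day 0 and 65.7 on day 21, beside 407 and 157 for Pdzk1. The other 6 members (Slc2a9, Abcg2, Slc17a1, Slc17a3, Abcc4 and Slc5a8) shared no exon base with another annotated gene, and neither did Slc5a12, in which 0.52% of the 50-base words occur in Gm4117, a gene with at most 8 counts in a mouse.

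**Figure D3:**
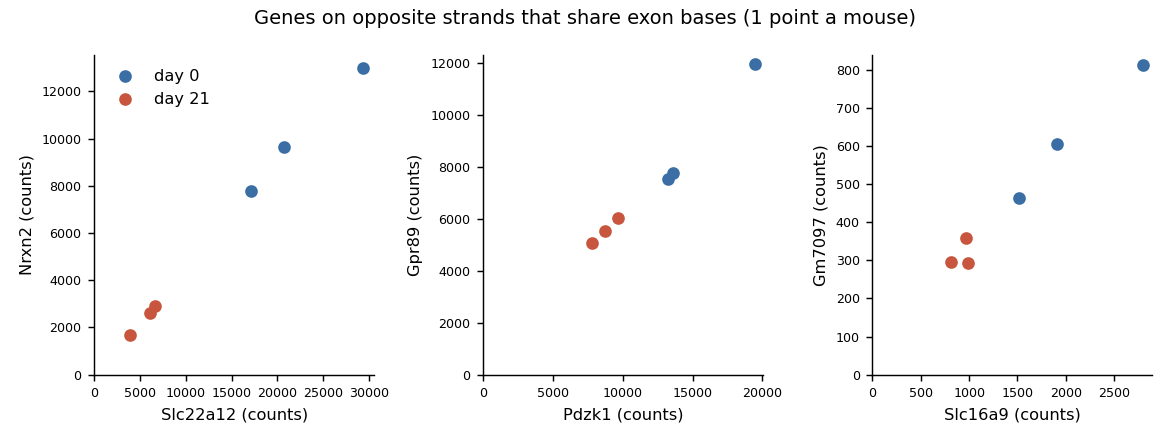
Counts of 3 opposite-strand genes against the counts of the members with which they share exon bases, with 1 point a mouse and both axes starting at 0. Day-21 mice lie at lower counts of both genes in each pair, and the Nrxn2 count stays between 43.1% and 46.4% of that of Slc22a12.

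Levels of different genes were compared per kilobase of exon, taking the union of all annotated exons of a gene as its length. On day 0 the order was led by Slc22a12, at 924 ± 154 CPM per kb (SD, n = 3), followed by Pdzk1 at 407 ± 40.5 and Slc17a1 at 284 ± 36.7. These 3 did not overlap with each other or with the next gene. Slc17a3 (99.5), Slc5a12 (84.1), Slc5a8 (58.4), Abcg2 (53.7) and Slc16a9 (49.9) came next, and no neighbours among these 5 were apart in all mice. Abcc4, at 8.32 ± 1.71, and Slc2a9, at 3.12 ± 0.898, closed the order, each apart from its neighbours. The union can be longer than any transcript, which lowers this measure, as for Abcg2, with 8153 bases in the union and 5717 in its longest transcript.

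On day 21 the order was flatter. Slc22a12 (158 ± 52.6 CPM per kb), Pdzk1 (157 ± 23.0) and Slc17a1 (118 ± 23.6) still led, but neighbours among the 3 now overlapped. Slc5a8 dropped from place 6 to place 9, below Abcc4 (12.1 ± 1.67 against 13.7 ± 1.27 CPM per kb, overlapping), and Slc2a9 stayed last at 4.58 ± 0.228. Summed over the 10 genes, the level was 1715, 2172 and 2028 CPM per kb on day 0, and 668, 430 and 586 on day 21, which left 28.5% of the mean.

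The make-up of this sum also differed. Slc22a12 made up 44.3%, 49.1% and 46.6% of it in the controls and 31.1%, 23.9% and 28.0% in the day-21 mice. The share of Pdzk1 was 19.4% to 21.8% on day 0 and 25.9% to 30.3% on day 21. Slc17a1 went from 13.7% to 15.4% up to 20.7% to 21.4%, and Abcc4 from 0.292% to 0.541% up to 2.09% to 3.29%. None of these 4 ranges overlapped between the days, while those of Slc5a12 and Slc16a9 did. The shares are parts of 1 sum, so a smaller Slc22a12 share leaves a larger one to the other genes together. Pdzk1 and Slc17a1 gained share although both fell in CPM.

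**Figure D4:**
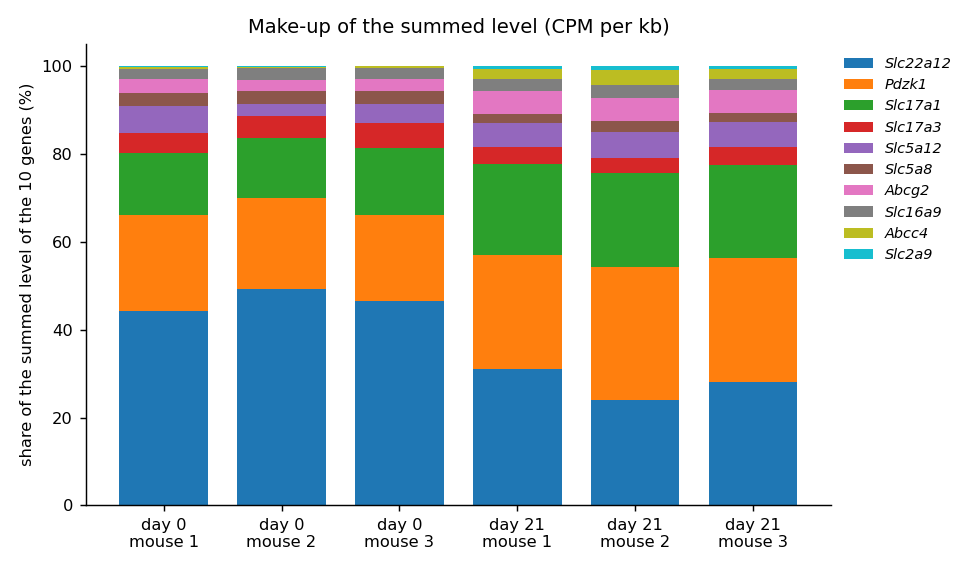
Share of each gene in the summed level of the 10 genes (CPM per kb) in each mouse, as stacked bars that reach 100%. The Slc22a12 share is 44.3% to 49.1% in day-0 mice and 23.9% to 31.1% in day-21 mice.

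A ratio of the reabsorptive to the secretory genes was formed in each mouse, from the summed level per kilobase of Slc22a12 and Slc2a9 over that of Abcg2, Slc17a1, Slc17a3 and Abcc4. On the log2 scale it was 1.00, 1.20 and 0.95 on day 0 and -0.02, -0.43 and -0.18 on day 21. The reabsorptive sum thus outweighed the secretory one in each control mouse, and lay slightly under it in each day-21 mouse. Nearly all of that sum was Slc22a12, at a mean of 924 CPM per kb on day 0 and 158 on day 21. Slc2a9 was at 3.12 and 4.58, and so moved the other way. The ratio therefore follows Slc22a12, of whose exon bases 30.1% lie in exons of Nrxn2. The mean went from 1.05 ± 0.14 to -0.21 ± 0.21 (SD, n = 3 each), a difference of -1.26 (exact permutation test, two-sided, p = 0.1, the smallest possible). Without Slc17a1, the secretory gene of the highest level, or with the longest transcript as the length, the difference was between -1.26 and -1.21, and without single mice it was between -1.35 and -1.15. These are mRNA levels of a whole kidney, with Slc2a9 known in mouse mainly from the distal tubule, and transport was not measured.

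To see how far each gene moved beside genes of the proximal tubule, its level was divided in each mouse by the summed level of the 9 proximal tubule markers. This needs no scaling between libraries. On this measure Slc22a12 was lower on day 21 by a log2 difference of -0.62, from -2.68, -2.40 and -2.37 to -2.75, -3.49 and -3.07. The groups were close, with only a small gap between the lowest control and the highest day-21 mouse. Slc5a8 also lay lower (-0.29), and Slc17a3 (-0.24) had overlapping groups and p = 0.5 by the exact permutation test. The other 7 genes were higher relative to the markers in all day-21 mice. Among them were Slc16a9 (0.27), Slc5a12 (0.57), Pdzk1 (0.59), Slc17a1 (0.70) and Abcg2 (1.10), all of which had fallen in CPM. For Slc5a12 the gap was small too, from -5.55 in the highest control to -5.52 in the lowest day-21 mouse. For Slc16a9 it ran from -6.56 to -6.52. Slc2a9 (2.57) and Abcc4 (2.71) moved most. Slc2a9 is known in mouse kidney mainly from the distal tubule, so these markers are not those of its own segment. Its own log2 fold change was 0.55, while all 9 markers were called lower, so most of its rise in ratio lies in the markers. Apart from Slc17a3, each difference in ratio had p = 0.1 in the two-sided exact permutation test, the smallest possible. After Benjamini-Hochberg adjustment over the 10 ratios it was 0.111. No ratio changed sign with the geometric mean of the markers, without the highest marker, with the other length or without single mice. Several moved in size. Without the highest marker Slc22a12 was at -0.41, Slc5a8 at -0.09, Slc17a3 at -0.03 and Slc16a9 at 0.48. Without day-0 replicate 1 Slc16a9 was at 0.15 and Slc17a3 at -0.38, and without day-0 replicate 2 Slc5a12 was at 0.29. Slc17a3 was at -0.09 without day-0 replicate 3 or without day-21 replicate 2, and at -0.16 with the geometric mean.

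**Figure D5:**
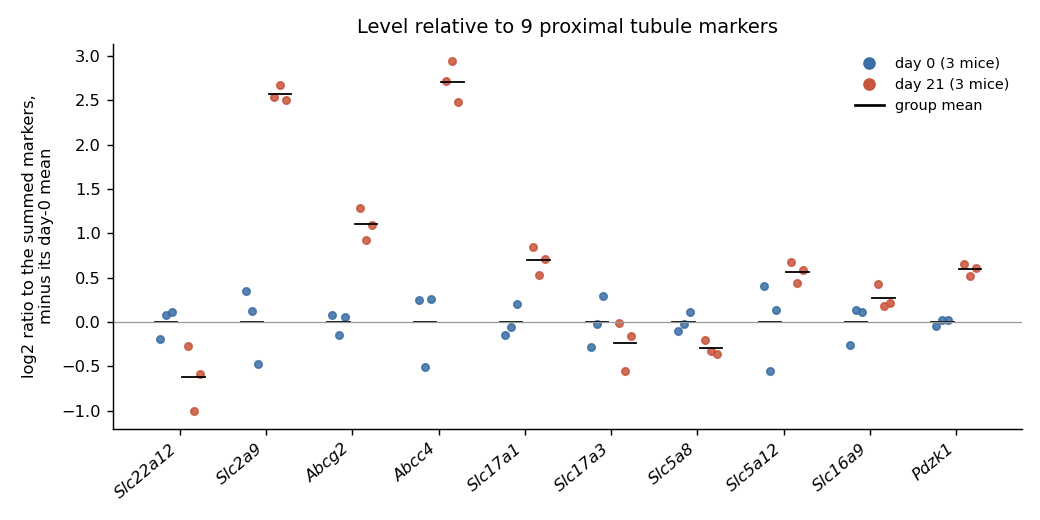
Log2 ratio of each gene to the summed level of 9 proximal tubule markers in each mouse, shown as the difference from its day-0 mean (line at 0), with group means as black lines. Slc22a12 and Slc5a8 lie lower on day 21, Slc17a3 overlaps, and Slc2a9 (2.57) and Abcc4 (2.71) lie highest.

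HNF4 factors, known to drive proximal tubule genes and to bind the letters searched above, were looked up in the counts. Hnf4a was at 1363, 1229 and 1103 CPM on day 0 and 563, 423 and 531 CPM on day 21, with a wide gap between the groups (log2 fold change -1.28, SE 0.14, edgeR adjusted p = 5.35e-05). Hnf4g, at far lower counts, fell by 0.68 on the log2 scale (adjusted p = 0.0421 by edgeR). With the upper quartile, library size alone or the replicate block, 1 of the pair was called lower.

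Other carriers that move urate or organic anions fell along with the members. Of 7 such genes 6 were tested, and 5 were called lower (15.5% of all genes tested), with a median log2 fold change of -2.10. Slc22a7 (OAT2) fell deepest, from 232 to 5.86 CPM on average (log2 fold change -5.32). The basolateral uptake carriers Slc22a6 (OAT1) and Slc22a8 (OAT3) were at -2.09 and -2.12, Slc22a13 (OAT10), a urate and nicotinate exchanger, was at -2.26, and Slc2a12 was at -1.06.

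Among 4 further PDZ proteins and partners of the brush border, 2 were called lower, beside 15.5% of all genes tested. Pdzd3, a scaffold related to Pdzk1, was at -1.49 (SE 0.15), and Slc9a3r1, which encodes NHERF1, was at -0.72 (SE 0.16), both tested with edgeR. Slc9a3r2 (-0.51) and Pdzk1ip1 (-0.28) were not called. The median of the list was -0.62, and no member of it was called higher.

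Of 8 listed enzymes of urate and adenine metabolism, 7 were tested, 2 were called higher and none lower, with a median log2 fold change of 0.26. Over all genes tested 19.6% were called higher and 15.5% lower, and the list is too short to be told apart from these shares. None of the 7 was lower at an unadjusted p under 0.05 in edgeR, nor was any called lower by DESeq2 or limma-voom. Xdh, the oxidase that forms urate, rose from 32.4 to 65.7 CPM on average (log2 fold change 1.02, SE 0.17, edgeR adjusted p = 0.000738). Aprt, the enzyme that salvages adenine, was at 0.26 and was not called (adjusted p = 0.160 by edgeR).

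Uox, which encodes uricase, the enzyme that oxonate blocks, is known from liver. It had 0 counts in all 3 day-0 mice and 27, 22 and 23 counts in the day-21 mice. Against a floor of 3 counts per day-0 library, the day-21 mean was at least 5.40-fold higher (edgeR adjusted p = 0.000464). Dnase2b, which lies within the span of Uox on the other strand, had 0 counts in 5 of the 6 mice and 1 in the other. Urad, which acts after uricase, was at 0 in all 6 mice.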

How the data were processed

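Kidney RNA of 3 mice on day 0 and 3 on day 21 was sequenced as paired-end reads of 150 bases. After alignment by the authors, counts of reads per gene were deposited as they were, with no scaling and with a column for each mouse. The submitters' processing notes name TopHat and mm10. The counting program and its strand setting are not given in the sources used here. All 55450 identifiers, with their versions, matched GENCODE mouse release 21 (GRCm38), which gave symbols, positions and exon lengths.

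The whole table was fitted with edgeR 4.0.16 in R 4.3.3, by TMM and the quasi-likelihood test. The filterByExpr step (counts of 10, totals of 15) left 16592 genes, over which p-values were adjusted by Benjamini-Hochberg. The DEG limits were 0.05 for the adjusted p and 1.5 for the fold, as in the study's methods. An SE is the log2 fold change divided by the square root of F. Alternatives, given in the closing section, used DESeq2 1.42.0, limma 3.58.1, other scalings, filters and thresholds, a replicate block and each mouse left out. Within-mouse ratios were tested by two-sided exact permutation. Promoter searches and figures used Python 3.11.15.

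The edgeR step was tested on simulated data, with the same DEG limits and 200 changed genes. It recovered 3 of them at 1.5-fold, 128 at 2-fold and 172 at 3-fold, with 3, 14 and 8 false calls. The 1.5-fold change equals the call limit, so many such genes must miss it by construction. Far fewer genes were changed than the 5821 called in the data, so these counts do not measure the power reached here. A gene not called may still have changed modestly. Libraries of a group differed beyond sampling noise (chi-square per gene 6.78 or more), so none was a duplicate. The labels do not say that mice share a cage or day by number. The 10 genes, all lists of markers and related genes, and the tests were chosen with earlier results of these data known. All 10 genes are named, and any gene of a short related list may be. A few listed genes are not reported here.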

Additional observations from a re-analysis of the deposited data

How the results depend on the processing

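Of the 10 genes, 8 were called lower in all fits but library size alone, where Abcg2 (-0.46) was not called, and the stricter threshold below, which left 7. The number called higher, 1, was 2 with upper quartile scaling, library size alone or at any fold, 0 where the adjusted p had to be under 0.01 and the fold over 2, and 1 to 2 without single mice. Slc2a9 was called with upper quartile scaling (0.63) and library size alone (0.94), and without single mice it ran from 0.31 to 0.67, being called without day-0 replicate 1 or 2. Without single mice Abcc4 ran from 0.55 to 0.80, and it was not called without day-0 replicate 2. Of all genes, 5821 were called, against 3172 at that stricter threshold, and 55.8% of the calls were higher, against 81.7% with library size alone. The median of all genes moves with that scaling, by construction.

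With library size alone, 1 of the other urate and organic anion carriers was called higher in place of 0, and 1 of the PDZ scaffolds was called lower in place of 2. Likewise 5 genes of urate metabolism were called higher in place of 2. In the same setting 3 other ABC pumps were called higher in place of 1 (2 with the upper quartile), and 3 other monocarboxylate transporters lower in place of 5. Of the HNF4 factors, 1 was called lower in place of 2 with library size alone, the upper quartile or the replicate block. With RLE, DESeq2, limma-voom or the block, 0 of the SLC2 and SLC5 carriers were called higher in place of 1. The cause of these changes was not tested.

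The labels do not pair the mice by replicate number. Deviations from the group mean correlated at r of -0.019, 0.165 and 0.090 in same-numbered mice. In unlike-numbered mice r ran from -0.181 to 0.116. So few values cannot decide whether mice shared a cage or day. With the replicate block 5758 genes were called, and the 10 genes kept their 8 lower and 1 higher calls. Length cannot move the ratio of a pair of single genes between days. Slc2a9, with at most 381 counts in a mouse, has the lowest counts of the 10.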

Other observations

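Other families of carriers with members beside those described above held calls in both directions. Over all genes tested 15.5% were called lower and 19.6% higher, and the lists here were not tested against those shares. Of 8 monocarboxylate transporters and partners (Slc16 and the chaperone Bsg), 5 were called lower and 1 higher, with a median log2 fold change of -0.76. Slc16a4 fell most (-2.46), followed by Slc16a7 (-1.66), a high-affinity pyruvate carrier, and Slc16a10 (-1.04), an aromatic amino acid carrier. Slc16a3, the lactate exporter of glycolytic cells, was higher at 2.77 CPM on day 0 and 5.47 CPM on day 21 (log2 fold change 0.97, edgeR adjusted p = 0.0296). Slc16a1, the common lactate carrier, was at -0.08 and was not called.

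Of 8 other ABC export pumps, 2 were called lower, 1 was called higher and 5 were not called. These are too few genes to set the pumps apart from the 15.5% lower and 19.6% higher over all genes tested. Abcc2, the apical partner of Abcc4 in the proximal tubule, went from 369 to 172 CPM on average (log2 fold change -1.11, SE 0.19, edgeR adjusted p = 0.000955). Abcc3, a basolateral conjugate pump, rose from between 32 and 45 counts a mouse to between 216 and 342 (log2 fold change 2.17, edgeR adjusted p = 2.64e-05). Within a list of SLC2 and SLC5 carriers, not all of them for sugars, 7 of 10 were called lower and 1 higher. Slc2a5, the fructose carrier, was at -1.76 and Slc5a2, the main glucose carrier of the early segments, at -1.71, with 20.6% of its exon bases in a gene on the other strand. Slc2a1 was called higher at 0.59, at the threshold, and lost its call with RLE, DESeq2, limma-voom or the replicate block.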
